A study of Mus musculus with 18 samples.

Results

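The comparison described here sets wild type mouse embryonic fibroblasts taken 34 h after a pulse of dexamethasone against the same kind of culture taken 22 h after it. It uses the 3 arrays whose labels give 34 h and the 3 whose labels give 22 h, 6 of the 18 arrays of the series, and all 19938 genes that had a probe set naming a single gene symbol. The series followed gene expression over a circadian cycle at 22, 26, 30, 34, 40 and 46 h after the pulse, with 3 arrays at each time. The 2 times compared lie 12 h apart and open the 24 h window.

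By their labels both groups carried the same genotype and the same treatment, and they differed in the time after the pulse. Anything else that differed between the groups, such as time in culture or handling of the RNA, cannot be told apart from it. The cells were wild type fibroblasts, prepared at embryonic day 13 from embryos without head and liver. According to the labels 2 C57BL/6 mice gave rise to the fibroblasts, and the wild type cells derived from siblings in a mating that also gave Bmal1-/- cells. Every culture had received 100 nM dexamethasone, a synthetic glucocorticoid hormone, for 2 h. No untreated culture is compared here, so a difference between 22 h and 34 h is a difference between times after the pulse and cannot be set against cells that never received it. The labels describe the culture medium in ways that do not match each other, and they refer to the mouse stocks of more than 1 mating, so the strain is given here only as far as they state it. They call the 3 samples of a time biological replicates without saying how the cultures were separated, so a p-value here speaks to the spread among these samples, which may be partly technical.

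The circadian clock of a mammalian cell is a feedback loop of transcription. BMAL1 (gene Arntl) and CLOCK bind E-box sequences and switch on the Per and Cry genes, whose proteins then repress BMAL1 and CLOCK. The same activators switch on the REV-ERB repressors (Nr1d1, Nr1d2), which hold Arntl down through ROR elements in competition with the ROR activators, and the D-box factors Dbp, Tef and Hlf, which oppose the repressor Nfil3. Fibroblasts in culture keep this clock, and a short pulse of dexamethasone sets the clocks of the cells to a common phase. Fibroblasts also divide in culture and build extracellular matrix.

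The values are intensities of Affymetrix whole-transcript arrays, given here as levels on the scale log2(intensity + 16) after quantile normalization. A change is the difference of the mean levels, 34 h minus 22 h, so that a change of 1 stands for a doubling on this scale, and the constant makes the changes of dim genes smaller than they were. A gene is called changed when its Benjamini-Hochberg adjusted p from limma is under 0.05. "No overlap" means that all 3 arrays of a time lie above all 3 of the other. The median raw intensity of the 6 arrays was 196 to 202. Replicate 2 of 22 h stood apart from the other arrays of its time: on the first principal component of the deviations from the time means, which held 33.8% of the variance, it scored 12.7, and replicates 1 and 3 scored -8.20 and -4.46. For many of the genes described below its level also lay nearer to the levels of 34 h than those of the other 22 h arrays did. The fibroblast label fitted the markers, since 10 of 12 fibroblast markers lay above the median gene level of 8.07, against 6 of 49 markers of 8 other cell types. In bulk RNA, fewer cells of a type and less RNA per cell cannot be told apart.

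Of the 19938 genes tested, 1882 (9.44%) were called different between the times. At 34 h 1065 (5.34%) were higher and 817 (4.1%) were lower. The rises were mostly small, with a median change of 0.27, and the falls were larger, with a median of -0.36. The median change over all genes was 0.04. Rises of at least 1.5-fold were seen for 33 genes and falls of that size for 193. A rise of at least 2-fold was found for 1 gene, Pi15, and falls of at least 2-fold for 10 genes. The arrays of the times did not overlap for 5544 genes (27.8%), 3564 (17.9%) higher and 1980 (9.93%) lower at 34 h. These shares of all genes are the background for the list counts below, both of calls and of arrays without overlap. At an unadjusted p under 0.05, 5059 genes differed.

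The split between rises and falls depended on the scaling of the arrays. Rises made up 56.6% of the calls after quantile normalization, 46.8% on the values as deposited, 48.6% after median scaling and 45% after cyclic loess. The number of calls also depended on single arrays. It was 737 without 22 h replicate 1, 3179 without 22 h replicate 2, 915 without 22 h replicate 3, 1206 without 34 h replicate 2 and 923 without 34 h replicate 3. For these reasons the genes singled out below are, unless said otherwise, those that kept their call under every alternative that tested them.

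**Figure D1:**
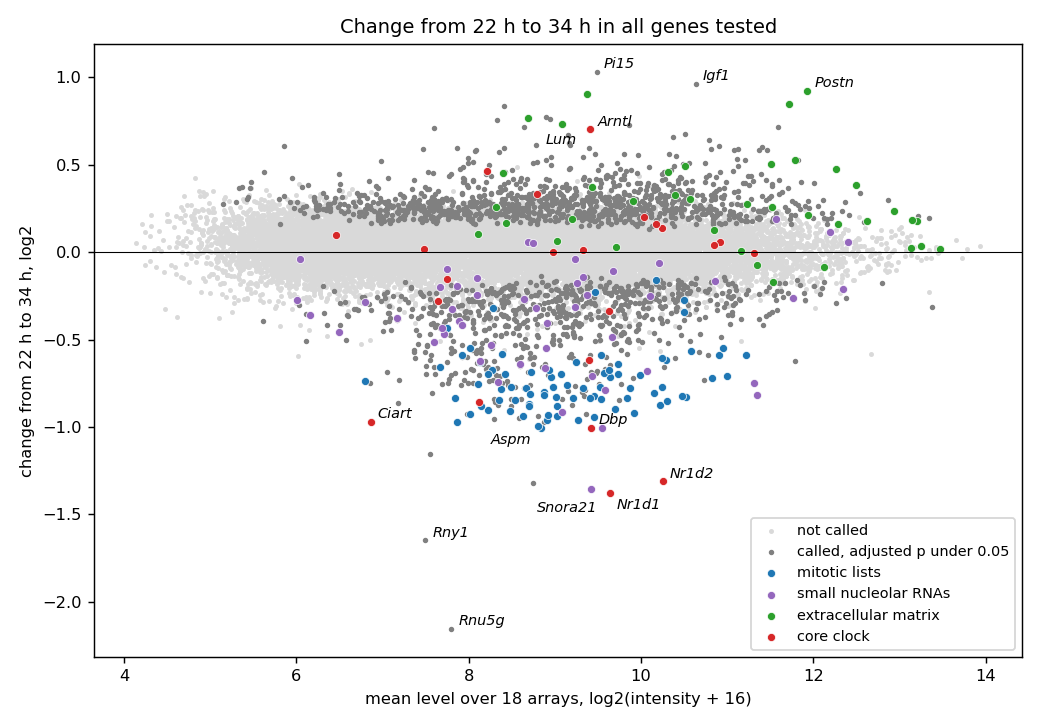
Change from 22 h to 34 h on the log2 scale (vertical) against the mean level over the 18 arrays, log2(intensity + 16) (horizontal), for all 19938 genes, with light grey points for genes not called and dark grey points for called genes. Coloured points are list members: the mitotic genes (blue) lie almost all between -0.16 and -1.0, most matrix genes (green) lie above 0, and the lowest point is the small nuclear RNA Rnu5g at -2.16.

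The clock genes split into falling and rising members, and the median change over the list was 0.01. Of 22 measured core clock genes 8 were lower at 34 h, 3 were higher and 11 did not pass, and the arrays did not overlap for 15. Over all genes 4.1% were lower, 5.34% were higher and 27.8% had no overlap. The lower group held the REV-ERB genes, the D-box activators Dbp and Tef, Per3, Per2 and the E-box repressors Ciart and Bhlhe40. The higher group held Arntl, Cry1 and Nfil3. Without 22 h replicate 2 it had 5 members.

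The deepest falls were in the REV-ERB repressors. Nr1d1 (probe set 10390691) read 10.37, 10.71 and 10.28 in the 22 h arrays and 8.93, 9.23 and 9.08 in the 34 h arrays. Its change was -1.38 (SE 0.16, limma adjusted p = 2.97e-05), a level 2.60 times as high at 22 h. Nr1d2 (probe set 10417734) read 11.08, 10.88 and 11.08 at 22 h and 9.77, 9.83 and 9.50 at 34 h, a change of -1.31 (SE 0.14, limma adjusted p = 1.9e-05). For both genes every 22 h array lay more than 1 unit above every 34 h array.

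The D-box factors followed. Dbp, an activator that drives many rhythmic genes of metabolism, read 9.95, 10.22 and 9.97 at 22 h and 9.09, 9.03 and 9.0 at 34 h (change -1.01, SE 0.11, limma adjusted p = 2.6e-05). Tef, its close relative, read 9.63, 9.73 and 9.76 at 22 h and 9.06, 9.10 and 9.12 at 34 h (change -0.62, SE 0.09, limma adjusted p = 0.000238). Neither gene had overlapping arrays. Hlf, the remaining activator of this family, had a change of 0.20 that did not pass (limma adjusted p = 0.0665). It passed under 6 of the alternatives.

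Nfil3, the repressor that binds the same D-box sequences, moved the other way. It read 8.67, 8.46 and 8.59 at 22 h and 8.82, 8.96 and 8.93 at 34 h (change 0.33, SE 0.07, limma adjusted p = 0.00636), and its arrays did not overlap.

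Arntl, which encodes the activator BMAL1, was higher at 34 h. It read 9.03, 8.79 and 9.0 at 22 h and 9.74, 9.62 and 9.57 at 34 h (change 0.70, SE 0.10, limma adjusted p = 0.000297). This was the largest rise of the list, and no 34 h array lay below 9.57. The partner gene Clock had a change of 0.14 that did not pass (limma adjusted p = 0.151), although its arrays did not overlap. Among the ROR activators, Rora had a change of 0.16 (limma adjusted p = 0.0699, passed under 5 alternatives) and Rorb a change of 0.10.

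The Per and Cry repressors did not move together. Cry1 was higher at 34 h, with 7.88, 7.81 and 7.83 at 22 h and 8.35, 8.27 and 8.30 at 34 h (change 0.47, SE 0.05, limma adjusted p = 1.51e-05). Cry2 had a change of -0.16 that did not pass (limma adjusted p = 0.132). Per3 was lower at 34 h, with 8.53, 8.65 and 8.66 at 22 h and 7.74, 7.77 and 7.77 at 34 h (change -0.86, SE 0.14, limma adjusted p = 0.00108).

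Per2 had the same sign with a smaller size, reading 7.76, 7.89 and 7.81 at 22 h and 7.54, 7.61 and 7.47 at 34 h (change -0.28, limma adjusted p = 0.025). Its call was lost when 22 h replicate 1, 2 or 3 or 34 h replicate 1 or 3 was left out, with adjusted p up to 0.113. Per1, in contrast, read 9.13, 9.45 and 9.24 at 22 h and 9.27, 9.23 and 9.35 at 34 h (change 0.01). Its arrays overlapped and its level was not told apart between the times.

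Ciart, an E-box repressor that binds BMAL1 and CLOCK, read 7.70, 7.32 and 7.94 at 22 h and 6.62, 6.91 and 6.52 at 34 h (change -0.97, SE 0.15, limma adjusted p = 0.000705). Bhlhe40, which competes for E-boxes, read 9.93, 9.84 and 9.95 at 22 h and 9.58, 9.78 and 9.36 at 34 h (change -0.34, limma adjusted p = 0.0346). Its call was lost without 22 h replicate 1 or 3 or 34 h replicate 1 or 3, with adjusted p up to 0.181. It was also lost in a fit on the 6 arrays alone and when every probe set was tested on its own. Its relative Bhlhe41 had a change of 0.00. The kinase and ligase genes that act on PER and CRY proteins did not pass either, with changes of 0.06 for Csnk1e, 0.02 for Fbxl21 and 0.04 for Btrc.

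**Figure D2:**
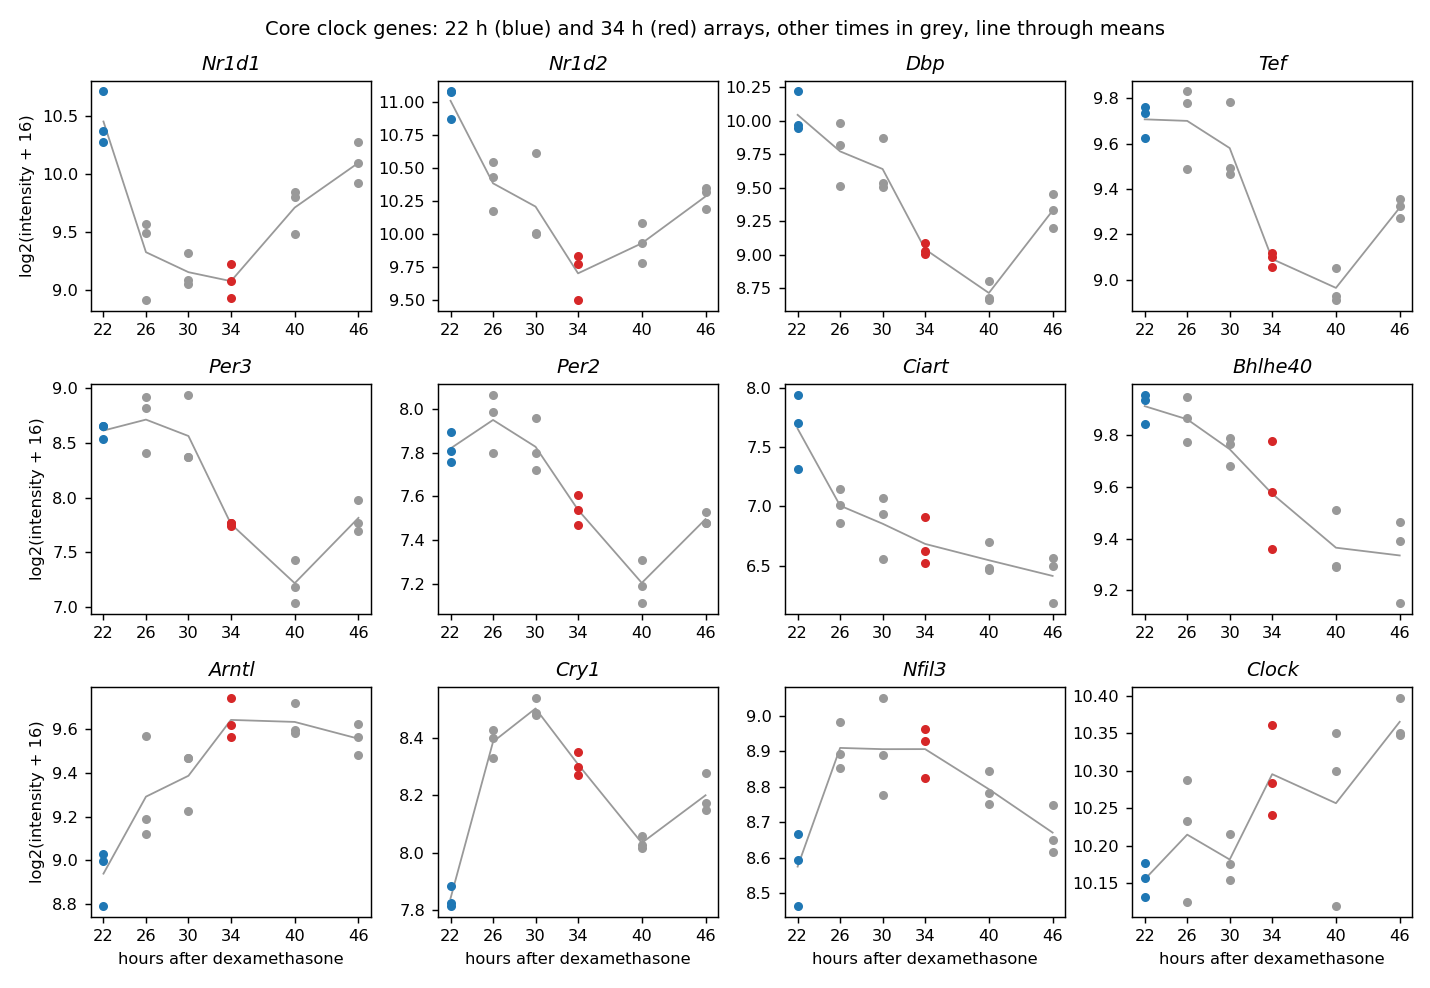
Level of 12 clock genes, log2(intensity + 16), against hours after dexamethasone. Points are arrays, 3 per time, with 22 h in blue, 34 h in red and the other times in grey, and the line joins the means. The red points lie below the blue ones for Nr1d1, Nr1d2, Dbp, Tef, Per3 and Ciart and above them for Arntl, Cry1 and Nfil3.

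The promoters of 3 of these genes are shown because they hold the E-box CACGTG bound by BMAL1 and CLOCK, and because they belong to genes that moved in opposite directions. Sequences are from RefSeq, build GRCm38.p6, 5′ to 3′ on the strand of the gene, from 220 bases before the start to 30 bases of transcript, with the E-box in capitals. Ciart (chr3:95882199-95882448, minus strand) and Tef (chr15:81802453-81802702, plus strand) were lower at 34 h, and Cry1 (chr10:85185025-85185274, minus strand) was higher.
Ciart: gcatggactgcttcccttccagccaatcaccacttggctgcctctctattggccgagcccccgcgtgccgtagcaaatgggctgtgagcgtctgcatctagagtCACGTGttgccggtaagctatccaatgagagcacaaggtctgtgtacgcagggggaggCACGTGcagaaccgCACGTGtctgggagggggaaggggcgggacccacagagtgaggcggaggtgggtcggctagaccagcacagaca
Tef: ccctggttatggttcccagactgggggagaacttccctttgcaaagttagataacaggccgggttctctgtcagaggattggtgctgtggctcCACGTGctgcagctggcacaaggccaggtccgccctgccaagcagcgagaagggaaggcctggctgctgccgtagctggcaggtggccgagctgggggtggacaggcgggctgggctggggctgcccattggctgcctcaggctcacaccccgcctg
Cry1: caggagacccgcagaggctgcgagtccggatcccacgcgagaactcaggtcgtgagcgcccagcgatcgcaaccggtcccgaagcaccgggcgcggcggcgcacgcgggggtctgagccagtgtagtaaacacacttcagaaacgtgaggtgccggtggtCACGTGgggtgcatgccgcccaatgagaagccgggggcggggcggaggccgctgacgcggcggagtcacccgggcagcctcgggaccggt
Counting the first transcribed base as 1 and the base before it as -1, the E-boxes begin at -116, -58 and -44 in Ciart, at -127 in Tef and at -60 in Cry1. Another start of Tef has an E-box at -138. In windows of 300 bases (250 before and 50 after the start, both strands), CACGTG was found at 5 of the 18 core clock genes with a promoter in the table (27.8%: Per1, Cry1, Tef, Bhlhe41 and Ciart) and at 9.5% of the 15614 genes tested that had one. The ROR element core AGGTCA was found at 5 of the 18 (27.8%: Arntl, Clock, Per1, Nr1d2 and Nfil3) and at 16.3% of all. The presence of the E-box did not sort the genes by direction, since it lay in promoters of genes that were lower (Ciart, Tef), higher (Cry1) and not called (Per1, Bhlhe41). A match is a description of these letters and does not show that a factor bound there.

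At the times between, the clock genes had covered their distance at different paces. Nr1d1 had mean levels of 10.45, 9.33, 9.15 and 9.08 at 22, 26, 30 and 34 h, so most of the difference was already present at 26 h. Per3 instead stayed at 8.61, 8.71 and 8.56 at 22, 26 and 30 h and read 7.76 at 34 h. Tef behaved like Per3, with 9.71, 9.70, 9.58 and 9.09 at these times.

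Nr1d2 and Dbp lay between these courses. Nr1d2 had means of 11.01, 10.38, 10.21 and 9.70, and Dbp had 10.04, 9.77, 9.64 and 9.04. Arntl climbed through 8.94, 9.29, 9.39 and 9.64. Cry1 passed its 34 h level on the way, with 7.84, 8.39, 8.50 and 8.31. The steps between these times were not tested here.

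Among 12 measured genes that are commonly rhythmic outputs of the clock, 3 (25%) were higher and 2 (16.7%) lower. Over all genes 5.34% were higher and 4.1% lower. Wee1, a kinase that holds back entry into mitosis, read 10.35, 10.04 and 10.32 at 22 h and 9.95, 9.72 and 9.66 at 34 h (change -0.46, SE 0.10, limma adjusted p = 0.00629). Ypel2 was higher, with a change of 0.38 (SE 0.07, limma adjusted p = 0.00307). The arrays of neither gene overlapped. Tfrc, the transferrin receptor, was lower by -0.67 (limma adjusted p = 0.0099). It lost its call without 22 h replicate 1 or 34 h replicate 3 and in a fit on the 6 arrays alone. Usp2, a deubiquitinase, was higher by 0.26 (limma adjusted p = 0.0149) and lost it without 22 h replicate 1 or 34 h replicate 2 or 3. The list then held 1 higher member without 22 h replicate 1 or 34 h replicate 2 and 1 lower member without 22 h replicate 1 or 34 h replicate 3.

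The most uniform group of the comparison was the machinery of cell division, which was lower at 34 h nearly without exception. Of 80 measured genes in the lists for mitotic cyclins and kinases, spindle and kinesins, kinetochore and checkpoint, and cytokinesis, 79 were lower, none was higher, and the arrays of 79 did not overlap. The median change was -0.77, with a range from -1.0 to -0.16, against a median of 0.04 over all genes and 4.1% of genes called lower. Arrays without overlap were found for 27.8% of all genes. The exception was Fzr1, an activator of the anaphase-promoting complex in G1, with a change of -0.16 (limma adjusted p = 0.132) and overlapping arrays.

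Aspm, a spindle-pole protein, read 9.96, 9.76 and 9.97 at 22 h and 8.84, 9.0 and 8.86 at 34 h (change -1.0, SE 0.08, limma adjusted p = 4.5e-06). Aurka, a kinase of the spindle poles, read 10.20, 10.07 and 10.23 at 22 h and 9.34, 9.47 and 9.37 at 34 h (change -0.78, SE 0.06, limma adjusted p = 4.5e-06). In both genes 22 h replicate 2 was the lowest of the 22 h arrays, and it still lay 0.60 or more above every 34 h array. Tacc3, which Aurka places on spindle microtubules, changed by -0.88 with the same adjusted p. Hmmr, another spindle protein, read 10.07, 9.76 and 10.05 at 22 h and 9.11, 9.05 and 8.93 at 34 h (change -0.93, SE 0.09, limma adjusted p = 1.21e-05).

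Kinesin motors of mitosis were among the deepest falls. Kif14 changed by -0.97 (limma adjusted p = 7.88e-06), Kif20b by -0.99 (limma adjusted p = 0.0007), Kif23 by -0.92 and Kif20a by -0.82. The size for Kif14 depended on the processing. Under the alternatives that tested it the change ran from -1.05 to -0.40, and the call was kept. All 22 members of the spindle list were lower, with a median of -0.83. Of 19 mitotic cyclins and kinases 18 were lower. Cdc25c, the phosphatase that activates CDK1, changed by -0.91 and Cdc25b by -0.63. The cyclin gene Ccnb2 read 11.44, 11.27 and 11.49 at 22 h and 10.63, 10.65 and 10.44 at 34 h (change -0.83, SE 0.12, limma adjusted p = 0.000339).

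All 30 kinetochore and checkpoint genes were lower, with a median of -0.74. Cenpa, the histone that marks centromeres, changed by -0.81, and the shugoshins Sgo1 and Sgo2a, which protect cohesion at centromeres, by -0.84 and -0.77. Birc5, a subunit of the chromosomal passenger complex in the same list, read 9.52, 9.31 and 9.49 at 22 h and 8.61, 8.69 and 8.68 at 34 h (change -0.78, SE 0.08, limma adjusted p = 1.51e-05). Its arrays did not overlap. All 11 cytokinesis genes were lower, with a median of -0.78. Prc1, which bundles the microtubules of the central spindle, changed by -0.84 and Racgap1 by -0.60. The counts of the mitotic lists stayed within 1.5 times of these under every left-out array.

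The promoters of 3 of these genes are shown because they carry, close to the start, the CHR element TTTGAA, through which the DREAM complex and B-MYB are known to time G2/M genes. They are again RefSeq sequences of GRCm38.p6, from 220 bases before the start to 30 after it, on the strand of the gene, with the element in capitals. Aspm lies at chr1:139454553-139454802 (plus strand), Hmmr at chr11:40733408-40733657 (minus strand) and Ccnb2 at chr9:70421525-70421774 (minus strand).
Aspm: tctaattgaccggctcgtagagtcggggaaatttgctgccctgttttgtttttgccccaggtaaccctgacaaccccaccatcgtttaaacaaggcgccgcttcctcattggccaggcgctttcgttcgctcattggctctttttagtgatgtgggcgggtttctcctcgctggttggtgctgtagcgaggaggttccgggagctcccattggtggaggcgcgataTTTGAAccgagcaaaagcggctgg
Hmmr: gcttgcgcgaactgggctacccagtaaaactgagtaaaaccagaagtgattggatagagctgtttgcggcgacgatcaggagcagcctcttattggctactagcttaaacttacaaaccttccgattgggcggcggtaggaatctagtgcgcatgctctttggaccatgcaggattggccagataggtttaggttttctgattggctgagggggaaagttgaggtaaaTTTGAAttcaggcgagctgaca
Ccnb2: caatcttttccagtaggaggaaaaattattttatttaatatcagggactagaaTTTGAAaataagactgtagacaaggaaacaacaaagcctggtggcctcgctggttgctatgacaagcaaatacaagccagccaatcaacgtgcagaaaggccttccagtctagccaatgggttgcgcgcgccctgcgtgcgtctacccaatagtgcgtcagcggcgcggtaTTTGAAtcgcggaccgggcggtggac
The element begins 6 bases after the first transcribed base in Aspm and 8 bases after it in Hmmr. In Ccnb2 the elements begin at -167 and 4 bases after the first transcribed base. Within 50 bases of the start on either side and on both strands, TTTGAA was found at 36 of the 69 mitotic genes with a promoter in the table (52.2%), against 4.49% of all 15614. It was found at 14 of 20 spindle genes (70%) and at 3 of 33 genes of G1/S and DNA replication (9.09%). Among all genes called, the share was 16.1% of those lower at 34 h and 3.54% of those higher. The lower genes include 79 of the 80 mitotic genes, so their share is not separate from the mitotic one. In the whole window of 300 bases the shares were 59.4% for the mitotic genes and 17.3% for all, and the CCAAT box, letters CCAAT, was found at 72.5% of the mitotic genes and 41.7% of all. These shares describe letters in promoters and were not tested.

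Genes of the G1/S transition and DNA replication were also lower, by less. Of 39 measured, 33 were lower, none was higher and 34 had no overlap, with a median change of -0.48. Among all genes 4.1% were lower and 27.8% had no overlap. Mcm5, a subunit of the replicative helicase, read 10.20, 10.12 and 10.24 at 22 h and 9.50, 9.62 and 9.49 at 34 h (change -0.65, SE 0.08, limma adjusted p = 8.98e-05). Its partners Mcm3 and Mcm7 changed by -0.64 and -0.52. Orc1, which marks replication origins, read 8.17, 7.45 and 8.02 at 22 h and 7.12, 7.11 and 6.83 at 34 h (change -0.86, limma adjusted p = 0.000693), with 22 h replicate 2 nearest to the 34 h arrays. Pole, the leading-strand polymerase, changed by -0.76. The 6 members that did not pass were Ccne1 (-0.12), Mcm6 (-0.23), Rfc3 (-0.47), Rfc4 (-0.51), E2f1 (0.05) and E2f2 (-0.27).

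The regulators that act before S phase did not move as a block. Of 16 measured D cyclins, CDK inhibitors and pocket proteins 2 (12.5%) were higher and 3 (18.75%) lower, against 5.34% and 4.1% of all genes. Ccnd3, a D cyclin, was higher by 0.33 (SE 0.07, limma adjusted p = 0.00454), with 10.60, 10.82 and 10.61 at 22 h and 11.01, 10.95 and 11.04 at 34 h. Rbl1, which encodes the pocket protein p107, was lower by -0.59 (SE 0.12, limma adjusted p = 0.00466), with 10.07, 9.62 and 10.04 at 22 h and 9.43, 9.32 and 9.22 at 34 h. Ccnd1, the main D cyclin of fibroblasts, was lower by -0.27 (limma adjusted p = 0.00687). It lost its call without 22 h replicate 1 and in a fit on the 6 arrays alone. The higher count of 2 became 1 without 22 h replicate 1 or 3 or 34 h replicate 1, 2 or 3. The lower count of 3 became 1 without 22 h replicate 1, while 22 h replicate 3 and the 34 h replicates left 2 each.

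Many secreted matrix genes were higher. Of 38 measured extracellular matrix genes 20 were higher at 34 h, none was lower and 24 had no overlap, with a median change of 0.25. Among all genes 5.34% were higher and 27.8% had no overlap. Postn, the matricellular protein periostin, read 10.99, 11.31 and 10.99 at 22 h and 12.01, 11.89 and 12.16 at 34 h (change 0.92, SE 0.10, limma adjusted p = 1.97e-05). Aspn, the small leucine-rich proteoglycan asporin, read 8.46, 8.86 and 8.60 at 22 h and 9.34, 9.38 and 9.92 at 34 h (change 0.91, SE 0.17, limma adjusted p = 0.00267). Thbs2, a thrombospondin, read 10.68, 11.21 and 10.86 at 22 h and 11.76, 11.65 and 11.87 at 34 h (change 0.85, limma adjusted p = 4.72e-05). In all of these genes 22 h replicate 2 was the highest 22 h array and stayed below every 34 h array.

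The rise was not shared by the whole list. Mfap4 (0.77), Lum (0.73), Fmod (0.53), Col12a1 (0.51) and Col6a3 (0.50) rose and kept their calls. Col1a1, the main chain of fibrillar collagen, changed by 0.24 (limma adjusted p = 0.0484) and lost its call under 12 alternatives. Fibronectin Fn1 (0.02), decorin Dcn (0.03) and biglycan Bgn (0.02) did not pass, nor did Thbs1 (-0.17) and tenascin Tnc (-0.08). Without 22 h replicate 1 the count of 20 was 11, without 22 h replicate 3 it was 11, and without 34 h replicate 3 it was 12. A fit on the 6 arrays alone called 12. For the lists described as having no member lower or none higher in limma, at most 1 member passed in that direction at an unadjusted p under 0.05.

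Genes of matrix proteases and their inhibitors were also mostly higher. Of 20 measured proteases and inhibitors 12 (60%) were higher and 1 (5%) was lower, against 5.34% and 4.1% of all genes. Pi15, a secreted protein of the CAP family first described as a protease inhibitor, had the largest rise of all genes. It read 8.33, 8.84 and 8.48 at 22 h and 9.54, 9.46 and 9.74 at 34 h (change 1.03, SE 0.13, limma adjusted p = 0.000107), with no overlap. Mmp11, a stromal metalloproteinase, rose by 0.72 and Adamts12 by 0.55. The plasminogen activators Plat and Plau rose by 0.39 and 0.43, and Mmp14, a membrane-bound collagenase, by 0.37. The lower member was the inhibitor Timp1 (-0.22, limma adjusted p = 0.0342). Its call was lost without 22 h replicate 1 or 3 or any replicate of 34 h. It was also lost with the replicate block, when every probe set was tested on its own and on the 6 arrays alone.

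Growth factor genes of the IGF axis were among the rises, 5 of 16 measured (31.25%, against 5.34% of all genes). None was lower, and the list median was 0.04. Igf1 read 9.54, 10.01 and 9.70 at 22 h and 10.68, 10.63 and 10.83 at 34 h (change 0.96, SE 0.09, limma adjusted p = 8.86e-06), the second largest rise of all genes. Igf2 rose by 0.34, from 12.26, 12.29 and 12.28 to 12.61, 12.59 and 12.65. Pappa, a protease that frees IGF from its binding proteins, rose by 0.48, and the binding protein gene Igfbp4 by 0.35, a call lost without 22 h replicate 1 or 34 h replicate 2. The count of 5 was 3 without 22 h replicate 1.

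Several other genes stood among the largest rises. Slc37a2 (0.84), a sugar-phosphate transporter, Apod (0.77), the lipid carrier apolipoprotein D, Spon2 (0.76), a secreted matrix protein, Gbgt1 (0.75), a glycosyltransferase, and Mylk (0.73), the myosin light chain kinase, all rose without overlap of the arrays. Of 15 semaphorins and receptors 3 (20%) were higher and 1 (6.67%) was lower, against 5.34% and 4.1% of all genes. The receptor gene Plxnd1 rose by 0.40 (limma adjusted p = 0.000705) and the ligand gene Sema7a fell, with 9.52, 9.30 and 9.51 at 22 h and 8.95, 9.14 and 8.84 at 34 h (change -0.47, limma adjusted p = 0.00235). The higher count of 3 was 1 without 22 h replicate 1 or 34 h replicate 3, 2 without 22 h replicate 3 or 34 h replicate 1 or 2, and 5 without 22 h replicate 2. Of the fibroblast markers 4 of 12 (33.3%) were higher, among them the growth factor receptor gene Pdgfra (0.39, limma adjusted p = 0.000606).

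Markers of other cell types lay mostly below the median gene level, with 6 of 49 above it. Of their 49 measured markers 2 were higher, Tie1 (0.18) and Col2a1 (0.28), each losing its call under 11 alternatives, and 0 were lower in the limma fit. Over all genes 5.34% were higher and 4.1% lower. The summed intensity of the fibroblast markers was 48185 to 49942 at 22 h and 51763 to 53522 at 34 h. For endothelium it was 670 to 729 and 752 to 760, for bone and cartilage 1941 to 1975 and 2031 to 2096, and for skeletal muscle 1402 to 1495 and 1503 to 1668. Macrophage markers summed to 958 to 1014 and 974 to 995. The part of such cells in the changes above was not tested.

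**Figure D3:**
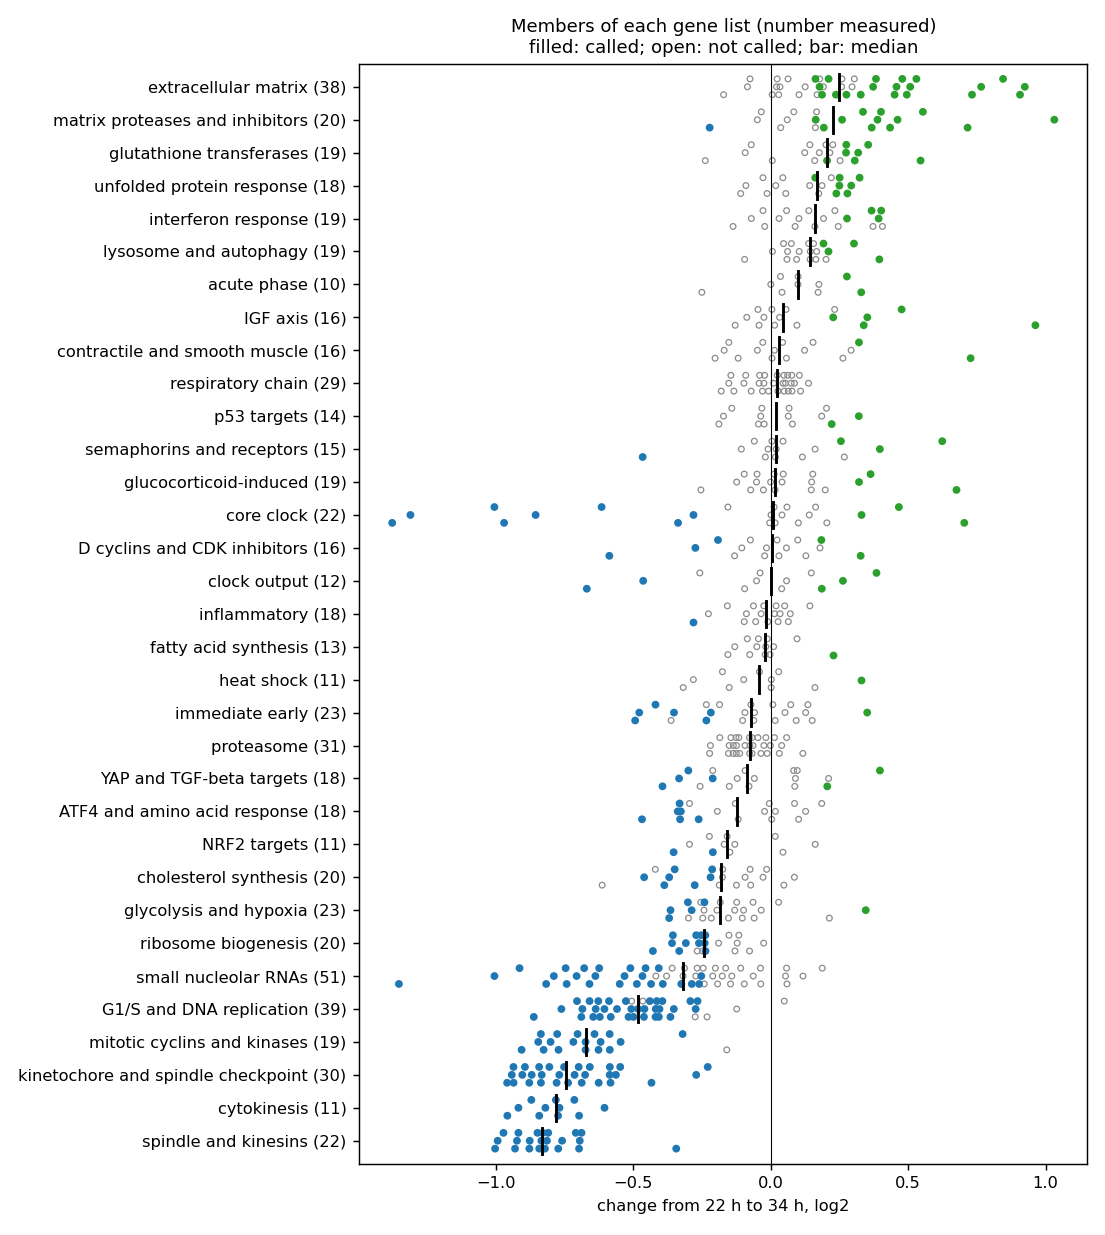
Change from 22 h to 34 h on the log2 scale for the members of each gene list, 1 row per list. Filled points are genes called at an adjusted p under 0.05, open points are genes not called, and the bar is the list's median. The mitotic rows lie wholly below 0 with medians from -0.67 to -0.83, and the matrix row has its median at 0.25 with 20 filled points to the right.

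Smaller rises were found in genes of protein folding, detoxification, lysosomes and interferon response. Of 18 unfolded protein response genes 7 (38.9%, against 5.34% of all genes) were higher, none lower, with a median of 0.17. Xbp1, the transcription factor of this response, read 11.21, 11.28 and 11.22 at 22 h and 11.53, 11.53 and 11.62 at 34 h (change 0.32, SE 0.05, limma adjusted p = 0.000339). Sdf2l1, an endoplasmic reticulum chaperone partner, rose by 0.29. Hspa5 (0.24) and Manf (0.28) also passed but lost their calls under several alternatives. The count of 7 was 3 without 22 h replicate 1, 2 without 22 h replicate 3 and 2 without 34 h replicate 2 or 3. It was 4 on the values as deposited, after median scaling, after cyclic loess and with the replicate block, and 2 on the 6 arrays alone.

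Of 19 glutathione transferase genes 7 were higher and none lower, with a median of 0.21 and 12 without overlap. Among all genes 5.34% were higher and 27.8% had no overlap. Gstt1 read 8.89, 9.09 and 9.02 at 22 h and 9.45, 9.57 and 9.62 at 34 h (change 0.55, SE 0.07, limma adjusted p = 6.83e-05). Its neighbour in the theta class, Gstt3, rose by 0.31. The count was 2 without 22 h replicate 1, 4 without 34 h replicate 2 and 3 on the 6 arrays alone. Members of the mu class, such as Gstm1 (0.35) and Gstm3 (0.27), are near-identical copies whose probes may share signal, and both lost their calls under some alternatives. Of 11 measured other targets of NRF2, 2 (18.2%, against 4.1% of all genes) were lower. None was higher and 9 did not pass, with a median of -0.16. The lower count was 1 without 22 h replicate 1 or 3 or 34 h replicate 1 or 3. Hmox1 had a change of 0.16 that did not pass (limma adjusted p = 0.115). Nqo1, a quinone reductase, read 8.13, 7.84 and 7.98 at 22 h and 7.69, 7.65 and 7.55 at 34 h (change -0.35, limma adjusted p = 0.00571).

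Of 19 lysosome and autophagy genes 4 (21.1%, against 5.34% of all genes) were higher, with a median of 0.14. Gaa, the acid glucosidase, had the largest change, 0.40. It lost its call without 22 h replicate 1 or 3 or 34 h replicate 3 and on the 6 arrays alone. The count was 0 without 22 h replicate 1, 1 without 22 h replicate 3 or 34 h replicate 3, 2 without 34 h replicate 1 and 8 without 22 h replicate 2. Of 19 interferon response genes 4 (21.1%) were higher, with a median of 0.16. The arrays did not overlap for 4 of the 19, against 27.8% of all genes. Stat2, a transcription factor of this response, rose by 0.28 (limma adjusted p = 0.00143). The higher count of the interferon list was 1 without 22 h replicate 1 or 34 h replicate 3. It was 2 without 22 h replicate 3 or 34 h replicate 2.

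The lists of biosynthesis differed in their counts. Of 20 ribosome biogenesis genes 11 (55%, against 4.1% of all genes) were lower, none higher, with a median of -0.24. Ddx21, a nucleolar helicase, read 10.91, 10.58 and 10.83 at 22 h and 10.43, 10.33 and 10.28 at 34 h (change -0.43, SE 0.08, limma adjusted p = 0.00327). Nop56, a core protein of C/D small nucleolar particles, changed by -0.36 and Utp20 by -0.31. The count was 3 without 22 h replicate 1, 5 without 22 h replicate 3, 7 without 34 h replicate 2 and 4 without 34 h replicate 3.

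Of 20 cholesterol synthesis genes 7 (35%, against 4.1% of all genes) were lower, none higher, with a median of -0.18. Insig1, which retains the sterol sensor in the endoplasmic reticulum, changed by -0.37 (SE 0.06, limma adjusted p = 0.00143), with 10.53, 10.34 and 10.49 at 22 h and 10.16, 10.09 and 9.99 at 34 h. The enzyme gene Cyp51 (-0.46) lost its call without 22 h replicate 1 or 3 or 34 h replicate 3 and on the 6 arrays alone. The count was 1 without 22 h replicate 1 or 3, 4 without 34 h replicate 2 and 2 without 34 h replicate 3. Of 13 fatty acid synthesis genes 1 (7.69%, against 5.34% of all genes) was higher and 12 did not pass, with a median of -0.02. The higher gene was Acss2, an acetyl-CoA synthetase (0.23, limma adjusted p = 0.0411). Its call was lost without 22 h replicate 1 or 3 or 34 h replicate 2 or 3. It was also lost after cyclic loess, when every probe set was tested on its own and on the 6 arrays alone.

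Of 23 glycolysis and hypoxia genes 5 were lower and 1, the peptide hormone gene Adm (0.35), was higher, except without 34 h replicate 3. The shares were 21.7% lower and 4.35% higher, against 4.1% and 5.34% of all genes. Pgk1 was lower by -0.36 (limma adjusted p = 0.00482), with no overlap. The lower count was 1 without 22 h replicate 1, 2 without 22 h replicate 3 or 34 h replicate 3 and 8 without 22 h replicate 2. Of 18 genes of the ATF4 amino acid response 6 (33.3%) were lower and none higher. The serine synthesis genes Phgdh and Psat1 changed by -0.34 and -0.33 and the amino acid transporter gene Slc7a5 by -0.26. That count was 3 without 22 h replicate 1 or 34 h replicate 3 and 4 without 22 h replicate 3.

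The way the spread was estimated moved the counts of these smaller groups. On the 6 arrays alone the lower counts were 4 for ribosome biogenesis and 2 each for cholesterol synthesis and glycolysis, and the higher counts were 0 for lysosomes and 1 for interferon response. With array weights the same counts were 18, 14 and 16, and 12 and 9.

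Housekeeping complexes gave no calls. None of 31 proteasome subunits and none of 29 respiratory chain subunits passed in limma, with medians of -0.08 and 0.02. At an unadjusted p under 0.05, 3 and 1 of them were lower. On the values as deposited, above the median level or without 22 h replicate 2, 2 proteasome genes passed as lower. With array weights 9 proteasome genes passed as lower, and 3 respiratory chain genes as lower and 1 as higher.

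Immediate early genes, which serum, stretch and hormones induce within minutes to hours, were called lower more often than higher. Of 23 immediate early genes 6 (26.1%) were lower and 1 (4.35%) was higher, against 4.1% and 5.34% of all genes. Myc read 9.90, 9.56 and 9.76 at 22 h and 9.37, 9.27 and 9.11 at 34 h (change -0.49, SE 0.09, limma adjusted p = 0.00225). Nr4a1, an orphan nuclear receptor, changed by -0.48 (limma adjusted p = 0.00109). Btg2, an anti-proliferative gene, rose by 0.35 (limma adjusted p = 0.00571), and Fos had a change of 0.13 that did not pass (limma adjusted p = 0.243). The lower count of 6 was 2 without 22 h replicate 1 and 3 without 22 h replicate 3 or 34 h replicate 3. It was 3 on the 6 arrays alone and 10 with array weights.

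Of 18 targets of YAP and TGF-beta 4 (22.2%) were lower and 2 (11.1%) higher, against 4.1% and 5.34% of all genes. Ccn2, a matricellular protein induced by both pathways, read 10.61, 10.38 and 10.42 at 22 h and 10.18, 10.07 and 9.97 at 34 h (change -0.39, SE 0.07, limma adjusted p = 0.00126). Ankrd1, a YAP target, changed by -0.33. The lower count was 2 without 22 h replicate 1. The higher count of 2 was 1 without 22 h replicate 1 or 3 or 34 h replicate 2 or 3, and 0 on the 6 arrays alone. With array weights 8 were lower and 5 higher.

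Of 19 measured genes that glucocorticoids induce 3 (15.8%) were higher and none lower, where 5.34% of all genes were higher. The median of the list was 0.02, against 0.04 over all genes. Rgs2, a brake on G-protein signalling, read 9.80, 10.19 and 9.80 at 22 h and 10.65, 10.45 and 10.72 at 34 h (change 0.68, SE 0.11, limma adjusted p = 0.000991). The other calls, Dusp1 (0.36) and Hif3a (0.32), were lost under 11 and 8 alternatives. The count was 1 without 22 h replicate 1 or 3 or any of the 34 h replicates, and 5 without 22 h replicate 2.

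The 2 genes with the largest falls, Rnu5g and Rny1, encode short, non-coding RNAs, and next to them came Nr1d1. Rnu5g, a U5 small nuclear RNA of the spliceosome (probe set 10594515), read 8.99, 8.63 and 8.79 at 22 h and 6.68, 5.93 and 7.33 at 34 h (change -2.16, SE 0.27, limma adjusted p = 8.17e-05). Its 34 h arrays spread over more than a unit, and the highest of them still lay below every 22 h array. Rny1, a Y RNA bound by the Ro protein (probe set 10544523), read 8.68, 8.03 and 8.47 at 22 h and 7.0, 6.45 and 6.79 at 34 h (change -1.65, SE 0.25, limma adjusted p = 0.000398). Vaultrc5, an RNA of vault particles, changed by -1.16 (limma adjusted p = 0.000136). Rnu3a (-1.32) had uneven 22 h arrays, 10.60 against 8.74 and 8.59, and lost its call under 5 alternatives, among them without 34 h replicate 1 or 2.

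Small nucleolar RNAs guide the chemical modification of ribosomal RNA, the C/D class directing methylation and the H/ACA class pseudouridylation. Of 51 measured 25 were lower, none higher, and 33 had no overlap, with a median change of -0.32. Among all genes 4.1% were lower and 27.8% had no overlap. Snora21 (probe set 10390505) read 10.14, 10.13 and 10.01 at 22 h and 8.18, 8.91 and 9.13 at 34 h (change -1.35, SE 0.17, limma adjusted p = 8.17e-05). Snora16a changed by -1.01 and Snora3 by -0.68. The classes differed in their counts, with 15 of 20 H/ACA RNAs lower (median -0.52) and 10 of 31 C/D RNAs lower (median -0.25), a difference that was not tested. The count of 25 was 13 without 22 h replicate 1, 16 without 22 h replicate 3, 14 without 34 h replicate 2, 15 without 34 h replicate 3 and 14 when every probe set was tested on its own. Near-identical copies such as Snora73a and Snora73b or Snord15a and Snord15b may share signal.

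Most of these RNAs are cut from introns of host genes, and few of the genes taken as hosts passed the test. The host was taken by position, as the shortest measured gene whose span holds the RNA. Strand and introns were not checked, so some of these genes may overlap the RNA without being its host. By this rule 29 small nucleolar RNAs had a measured host, in 25 hosts. Of these RNAs 12 were lower, against 2 hosts lower (Ncl at -0.27 and Nop56 at -0.36) and 0 hosts higher in the limma fit. The median change was -0.29 for the RNAs and -0.05 for their hosts, whose changes ran from -0.36 to 0.10. For 24 of the 29 the change lay below that of the host. The host of Snora21, the ribosomal protein gene Rpl23, had a change of -0.01 (limma adjusted p = 0.962).

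The lower levels were seen from 34 h on and on all 34 h arrays. Relative to the 22 h mean, the median of the list was 0.08, -0.01 and -0.08 in the 22 h arrays and -0.27, -0.37 and -0.34 in the 34 h arrays. Its mean was -0.05 at both 26 and 30 h, and then -0.33, -0.22 and -0.30 at 34, 40 and 46 h. Snora21 had mean levels of 10.09, 9.92 and 9.87 at 22, 26 and 30 h and 8.74 at 34 h, and Rnu5g had 8.80, 8.83, 8.41 and 6.65. Such short RNAs are without a poly(A) tail, and the labels describe column-cleaned total RNA primed with random hexamers. How far their recovery differed between samples was not tested.

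**Figure D4:**
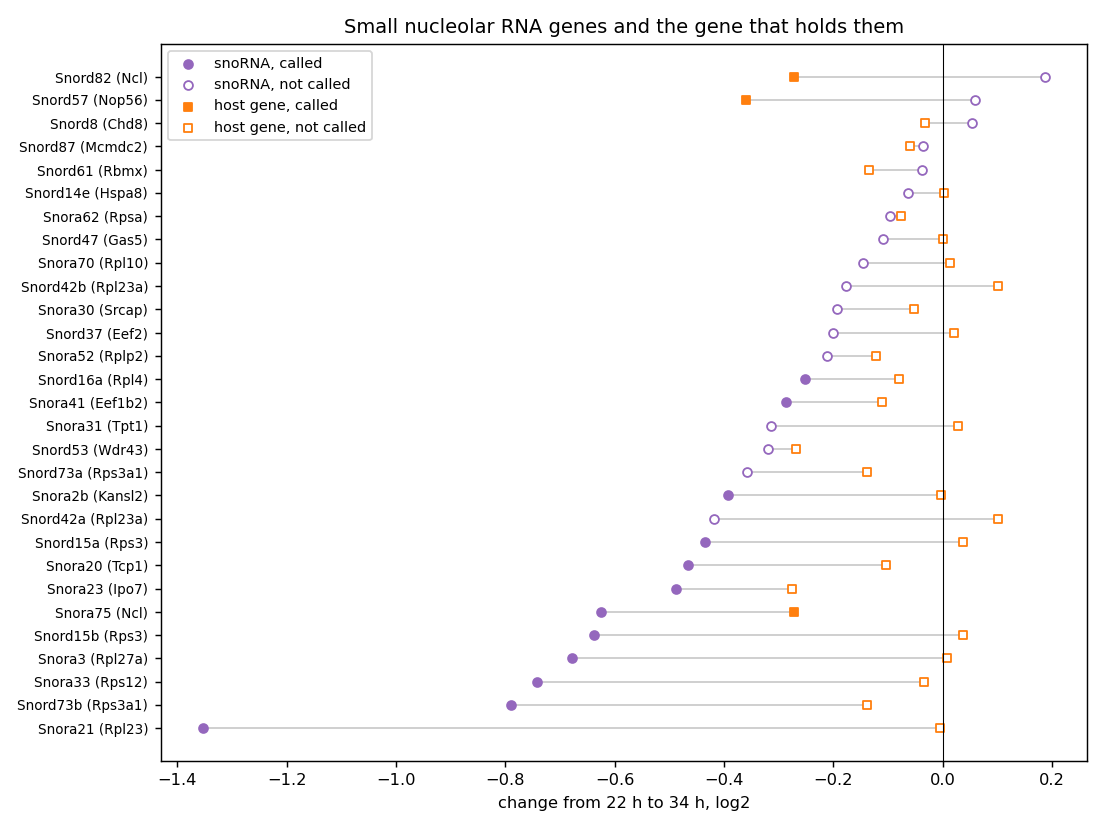
Change from 22 h to 34 h on the log2 scale for 29 small nucleolar RNAs and for the genes taken as their hosts by position. A line joins each RNA to its host. Circles are the RNAs and squares the hosts, filled where called and open where not. The hosts lie between -0.36 and 0.10, while the RNAs reach down to -1.35 for Snora21.

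The groups that fell did so on different schedules. Relative to the 22 h mean, the median of the spindle list passed through -0.66, -0.80 and -0.83 at 26, 30 and 34 h, and it went on to -1.39 and -1.59 at 40 and 46 h. Of its distance at 34 h, most was thus present at 26 h. The replication list passed through -0.30, -0.38 and -0.48, and then -0.67 and -0.69. The matrix list rose through 0.13, 0.19 and 0.25 to 0.28 and 0.36. The unfolded protein response list stood at -0.01 and -0.02 at 26 and 30 h and at 0.15 at 34 h. For the spindle list the 22 h arrays themselves lay at 0.09, -0.14 and 0.06, with replicate 2 the lowest.

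Genes called between 22 h and 34 h can be looked at between 26 h and 30 h, on arrays that the call did not compare, although those arrays shared in the estimate of the spread and in the normalization. From 26 h to 30 h 73.3% of the 1065 higher genes had a positive difference, against 53.1% of all genes, with a median of 0.03. Of the 817 lower genes 82.3% had a negative difference, against 46.9% of all, with a median of -0.06. From 40 h to 46 h the shares were 61.1% and 66.1%, against 47% and 53% of all genes. These shares are descriptions, as the genes are not independent of each other.

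**Figure D5:**
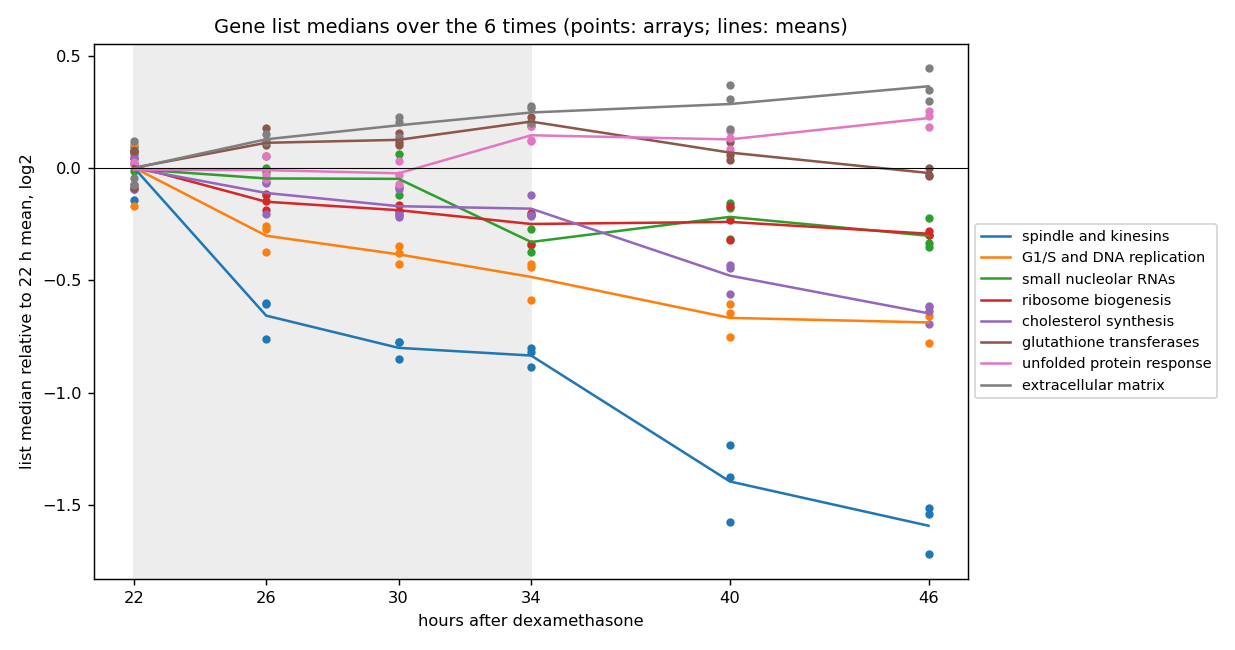
Median level of 8 gene lists relative to the 22 h mean, log2, against hours after dexamethasone. Points are arrays, lines join the means, and the shaded band spans 22 h to 34 h. The spindle list is already at -0.66 at 26 h and reaches -1.59 at 46 h. The small nucleolar RNAs leave 0 at 34 h, and the matrix list climbs to 0.36.

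Over the next 12 h the groups took different courses. The comparison of 46 h with 34 h shares the 34 h arrays with the present one, so the values are set side by side only. The mitotic genes had a median change of -0.77 from 22 h to 34 h and -0.65 from 34 h to 46 h, and the matrix genes 0.25 and 0.10. Igf1 changed by 0.96 and then 0.69, and Postn by 0.92 and then 0.72. The glutathione transferases had medians of 0.21 and -0.24, and the interferon response genes 0.16 and -0.16. The immediate early genes had -0.07 and 0.06, and the small nucleolar RNAs -0.32 and 0.06. Nr1d1 changed by -1.38 and then 1.02.

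The difference between these changes was tested across all genes, and 27 (0.135%) were called in limma. Of them 25 could be named by the rule used here, and 5 were core clock genes: Nr1d1, Nr1d2, Dbp, Cry1 and Tef. For Tef the changes were -0.62 and 0.23. Glutathione transferases gave 4 of them, Gstt1, Gstm7, Gstm3 and Gstm1. The number of genes called here was small and moved with single arrays, from 2 without 34 h replicate 2 to 138 without 22 h replicate 2. It was 6 without 22 h replicate 1 or 3, 9 without 34 h replicate 1, 6 without 34 h replicate 3, 7 without 46 h replicate 1 or 3 and 15 without 46 h replicate 2. Nr1d1 and Nr1d2 passed under all 22 alternatives.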

How the data were processed

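Each culture's total RNA went through the Affymetrix whole-transcript labelling kits and onto 1 array. The deposited values are linear intensities, 1 per probe set. The submitters' processing notes name Affymetrix Expression Console 1.1 and PLIER 2.0, with order and settings not given in the sources used here. Of 35556 probe sets, 21789 had 1 gene symbol in the platform annotation, 1621 had several and 12146 were not listed. For 999 genes with several probe sets the brightest was kept, which left 19938 genes, and levels of different probe sets were not compared. Intensities were taken as log2(value + 16) and quantile normalized over 18 arrays.

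With R 4.3.3 and limma 3.58.1, group means of the 6 times were fitted (lmFit, eBayes; 12 residual degrees of freedom), so that all times shared 1 spread. P-values were adjusted by Benjamini-Hochberg over all genes (threshold 0.05). The script was tested on simulated data. Alternatives changed the scaling, the constant, filters on dim genes, the use of probe sets, the arrays fitted, a replicate block, array weights, the moderation, the threshold and the replicates. Genes named were all core clock genes, the 12 largest rises and falls, up to 4 members with the smallest p of every list and up to 10 genes of the contrast of changes. Other members are named as examples or as those that did not pass, and were picked after their values were seen. The members and lists were chosen with earlier results of these data known. Promoter and miRNA sequences came from RefSeq tables.

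Array numbers limit the precision. Same-numbered replicates of 22 h and 34 h deviated from their group means with correlations of 0.30, 0.19 and -0.10, so the numbers were not taken to pair samples.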

Additional observations from a re-analysis of the deposited data

Results flagged for a closer look

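The 10 genes given here are those with the smallest p among the 25 that could be named of the 27 genes whose change from 22 h to 34 h differed from the change from 34 h to 46 h in limma's test of the difference, in which the 34 h arrays enter both changes. The largest differences were those of the REV-ERB genes, -2.40 for Nr1d1 (-1.38, then 1.02, Benjamini-Hochberg adjusted p = 0.00168) and -1.90 for Nr1d2 (-1.31, then 0.58, adjusted p = 0.00524). Both were called under every alternative. Dbp differed by -1.29 (adjusted p = 0.0133) and Cry1 by 0.57 (0.47, then -0.11). Dbp lost its call when any 34 h replicate was left out, and so did Cry1, which also lost it on the arrays of the times compared alone.

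Outside the clock, Gstt1 differed by 0.85 (0.55, then -0.30, adjusted p = 0.00835) and lost its call without 34 h replicate 2 or 3 and on the arrays of the times compared alone. P2rx6, an ATP-gated channel gene, differed by 0.67 (0.45, then -0.21, adjusted p = 0.00977) and lost it without 34 h replicate 2 and on those arrays alone, with adjusted p up to 0.143.

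The remaining genes were closer to the threshold. Dtx3l, a ubiquitin ligase gene, differed by 0.54, Ccn2 by -0.68, the quinone reductase gene Cryz by 0.51 and Lbp, the lipopolysaccharide binding protein gene, by 0.67, with adjusted p of 0.0348 to 0.0366. Under the alternatives Dtx3l and Ccn2 lost their calls in 8 of 22, Cryz in 10 and Lbp in 11.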

How the results depend on the processing

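Of 134 named genes called between the times, 85 kept their call under every alternative that tested them, 49 lost it at least in 1, and 0 changed direction. The fit on the 6 arrays alone called 819 genes (359 higher, 460 lower), and array weights 6717 (4195 and 2522). At an adjusted p of 0.01 there were 784 calls (357 and 427), and at 0.10 there were 3007, 1837 of them higher. Leaving out 1 replicate gave 737 to 3179 calls, 330 to 1909 higher and 407 to 1270 lower. With the replicate number as a block 1516 genes were called, and for the difference between the changes the block left 7 of 27. The deviations of same-numbered arrays did not all correlate. Whether same-numbered samples share more than a number cannot be told from these few pairs or from the labels.

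The 27 calls of that difference became 16 on the values as deposited, 70 after median scaling, 66 with a constant of 64, 72 without the dimmest quartile of genes and 107 above the median level. They became 4 on the arrays of its own times, 952 with array weights, 56 with trend and robust moderation, 4 at 0.01 and 93 at 0.10. Leaving out 1 replicate gave 2 to 138. Of 793 list medians compared, 38 moved by more than their spread between replicates. With 3 arrays a time, small changes of dim genes could not be resolved, and a single cycle was sampled.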

Other observations

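Of 302 measured microRNA genes and host transcripts, 9 were higher and 9 lower in limma (5.96% called), a share below the 9.44% of all genes tested. The genes named here were picked after their values were seen. These probe sets measure precursors, not mature microRNAs. Mir218-1 read 8.73, 8.38 and 8.52 at 22 h and 7.91, 7.83 and 7.91 at 34 h, a change of -0.66 (limma adjusted p = 0.00373), and kept its call under every alternative that tested it. Its arrays did not overlap.

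Members of a cluster that sits in the host transcript Mir17hg lay on the lower side. Mir17hg is a known target of MYC, and whether its change was linked to that of Myc was not tested. The mature sequences are shown with the seed, bases 2 to 8, in capitals, because the cluster holds families with different seeds.
mmu-miR-17-5p: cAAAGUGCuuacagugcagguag
mmu-miR-18a-5p: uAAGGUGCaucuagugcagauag
mmu-miR-19a-3p: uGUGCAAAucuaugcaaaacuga
mmu-miR-20a-5p: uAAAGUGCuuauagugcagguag
mmu-miR-19b-3p: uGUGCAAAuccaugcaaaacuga
miR-17 and miR-20a share a seed, as do miR-19a and miR-19b. Mir18 changed by -0.50 (limma adjusted p = 0.008), Mir19a by -0.51 (limma adjusted p = 0.0111) and the host Mir17hg by -0.42 (limma adjusted p = 0.0422). Mir19b-1 (-0.45), Mir20a (-0.17) and Mir17 (-0.10) did not pass. Mir18 lost its call without 22 h replicate 1 and on the 6 arrays alone. Mir19a lost its call without 22 h replicate 1 or 3 or 34 h replicate 3, and Mir17hg under 10 of 17 alternatives.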
